A study of Mus musculus with 12 samples.

Results

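The cytosolic ribosomal protein genes on the array were taken by symbol: Rpl or Rps followed by a digit, or Rpsa, Rplp0, Rplp1 or Rplp2, with the S6 kinases and the pseudogene symbols left out. The rule took 78 of the 21998 probes, which stand for 70 genes, and 66 of these genes entered the tests beside 14418 features in all. The members comprise 39 core genes of the large subunit, 22 core genes of the small subunit, 7 paralogs and 2 genes named for a small subunit protein (Rps19bp1 and Rps23rg1). Another 5 probes that carry several symbols were not used, and 8 of the 70 genes had more than 1 probe.

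The tissue was E13.5 (embryonic day) mouse neocortex, cut into a rostral and a caudal portion, from the outbred strain MF1 and the inbred strain C57Bl\6 (C57 below). No genotype or treatment was named, and both strains were used so that strain-dependent patterns could be told from shared ones. Each strain gave 3 pools of 3 embryos per the sample labels, left and right cortex together, with total RNA that was amplified as cDNA before labelling. Rostral and caudal material of a pool met on 2 arrays with the dyes swapped, so 12 arrays make 6 pools, and n below counts pools. The design text speaks of single litters, and no label says whether the 3 pools within a strain had different litters, so p-values measure only the spread between these pools. All values are log2 ratios of rostral over caudal signal (0 is equal, 1 is 2-fold) after each array was centred on its median. That the deposited ratio is Cy5 over Cy3 was not stated, and the direction is likely rather than known. It rests on the dyes in the labels and on Nr2f1, a transcription factor gene with higher caudal than rostral expression in embryonic cortex, whose log2 ratio was -1.14 ± 0.569 (SD, n = 6), below 0 in 6 of 6 pools. The arrays held 17998 to 20997 values each. Per array, the median absolute deviation was 0.375 to 0.638 on MF1 arrays and 0.641 to 0.881 on C57 arrays, so C57 ratios were more widely spread. Ratios hold no expression levels, so marker levels of the tissue could not be read, and fewer cells of a type and less RNA per cell cannot be told apart in bulk tissue.

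Ribosomal proteins assemble with ribosomal RNA into the small subunit, which reads the messenger RNA, and the large subunit, which joins amino acids. Their messenger RNAs are among the most abundant in dividing cells, and many begin with a C followed by a run of pyrimidines, the 5′ terminal oligopyrimidine (TOP) tract through which the mTOR pathway tunes their translation. In embryonic cortex, progenitors that grow and divide need a steady supply of new ribosomes. Ribosomal protein genes have many processed pseudogenes and near-identical copies, so a probe may collect signal from more than 1 locus.

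The start-site windows below are examples. They show, for some of the members described later, whether a pyrimidine run lies near the annotated start, where a TOP tract would lie. Each has 15 bases before and 15 from the annotated start, from RefSeq on GRCm38.p6, with runs of 5 or more pyrimidines that open with C in capitals. Rpl13a (chr7:45128731-45128760, minus strand), Rpl15 (chr14:18270972-18271001, minus strand), Rpl4 (chr9:64173372-64173401, plus strand), Rplp2 (chr7:141447636-141447665, plus strand) and the paralog Rpl22l1 (chr3:28805493-28805522, plus strand) hold such a run. Rpl23 (chr11:97782425-97782454, minus strand) and Rps4x (chrX:102189377-102189406, minus strand) hold none in this window. Among members whose windows are not shown, Rpl36a, Rpl39, Rps12 and others hold a run. Rpl10, Rpl9, Rplp0, Rpsa and others hold none. The runs of Rpl13a and Rpl22l1 begin after the annotated start, that of Rpl4 ends before it, and those of Rpl15 and Rplp2 span it, so the capitals mark pyrimidine runs and not mapped TOP tracts.
Rpl13a: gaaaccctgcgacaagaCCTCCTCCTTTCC
Rpl15: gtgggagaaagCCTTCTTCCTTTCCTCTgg
Rpl4: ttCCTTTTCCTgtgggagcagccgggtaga
Rplp2: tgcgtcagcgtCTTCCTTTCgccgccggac
Rpl22l1: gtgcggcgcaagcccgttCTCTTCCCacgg
Rpl23: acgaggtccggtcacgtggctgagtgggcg
Rps4x: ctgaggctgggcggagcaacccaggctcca
In all, 58 of the 70 members matched an entry of the promoter table. Among the 50 core genes matched, 30 (60%) held such a run on their own strand, against 40.3% of the 27025 genes in the table. Over the whole 300 bases (250 before and 50 after the start) and on both strands, 22 core genes (44%) held the ETS core CCGGAAG, against 9.93% of all genes. The YY1 core AAGATGGC was found in 3 core genes (6%) against 3.19%, and TATAAA in 5 (10%) against 15.7%. A match is a run of letters and was not tied to the ratios.

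None of the 66 tested ribosomal protein genes lay on the same side of 0 in all 6 pools. Differences could still be missed. On simulated data the procedure recovered 0% of features changed by 0.5 (log2) and 43.3% of those changed by 1. The members lay together in each pool, to 1 side in some pools and to the other side in others. Their median log2 ratio was -0.121, -0.22 and 0.405 in MF1 pools 1, 2 and 3, and 0.161, -0.077 and 0.213 in C57 pools 1, 2 and 3. MF1 pool 3 was the highest and MF1 pool 2 the lowest, so the extremes fell within 1 strain, and the strains overlapped. The mean of the pool medians was 0.060 ± 0.238 (SD, n = 6), a mean far smaller than its spread. Over all features the same medians ran from -0.02 to 0.029. Set against them, the members stood at -0.102, -0.22 and 0.376 in the MF1 pools and 0.137, -0.057 and 0.207 in the C57 pools. Centring shifts the members and all features of an array alike, so it cannot change these differences. Without centring, the members' own median in C57 pool 3 is -0.054, on the other side of 0.

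Most members took the side of their pool. Of the 66, 18, 7 and 62 were above 0 in MF1 pools 1, 2 and 3, and 59, 24 and 56 in C57 pools 1, 2 and 3. The share of all features above 0 was between 47.5% and 52.9% in every pool. In MF1 pool 2, then, 10.6% of the members were above 0, and in MF1 pool 3 it was 93.9%. Among the 59 core genes, 22 lay on the side of the members' median in all 6 pools and 46 in at least 5. That side was taken from these same members, so at least 50% of the 66 lie on it in each pool by definition. The share of all features on these sides was not computed. The middle 50% of the members spanned 0.186 to 0.283 within a pool, against 0.417 to 0.619 for all features, so the members were also closer to one another than features at large.

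**Figure D1:**
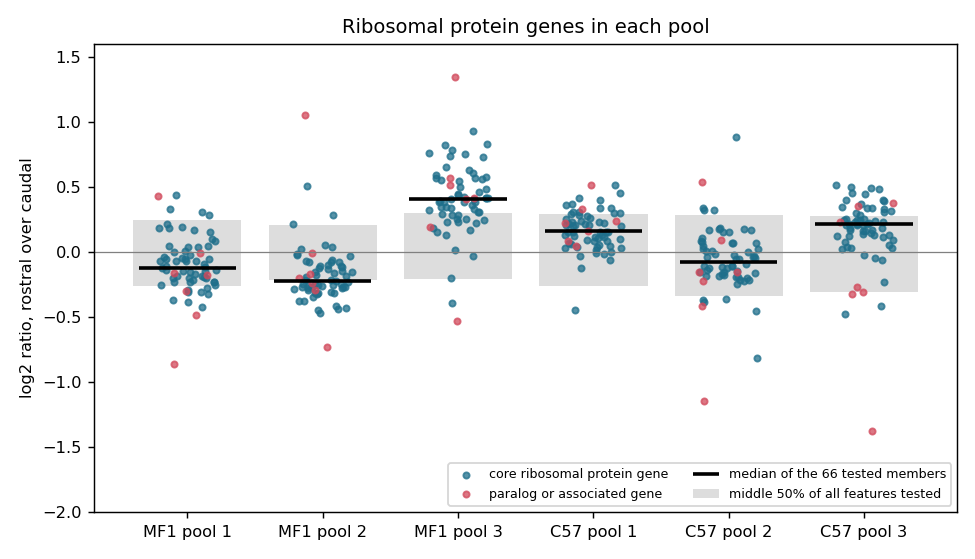
Log2 ratio of rostral over caudal signal (vertical axis) for each of the 66 tested ribosomal protein genes in the 6 pools; points are core genes or paralogs and associated genes, black lines the members' median, and grey bars the middle 50% of all 14418 features. The members' median is lowest in MF1 pool 2 (-0.22) and highest in MF1 pool 3 (0.405).

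The size of this was taken as the share of the sum of squares, about the mean of all ratios in a set, that lies between pools. For the 59 core genes, 49.8% of the variation in the log2 ratios lay between pools, 4.34% between genes and 45.8% in neither. For all 66 members the share between pools was 39.3%. Over all features it was 0.426%, a value that centring sets near 0 by construction. These shares, here and for the lists below, use only features with values in all 6 pools, 10596 for all features. A single core gene varied less over the pools (median SD 0.275) than a feature at large (0.4). Its mean ratio was also smaller in size, at a median of 0.082 against 0.153.

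The dye orientation moved with the members' values, and differently in the strains. In MF1 pools the median over member probes was -0.032, -0.051 and 0.464 on the arrays with rostral RNA in Cy3, and -0.188, -0.364 and 0.335 on those with rostral RNA in Cy5. Both orientations thus put MF1 pools 1 and 2 below 0 and pool 3 above it. In C57 pools the Cy3 arrays gave -0.034, -0.295 and -0.012, and the Cy5 arrays gave 0.36, 0.147 and 0.413. All C57 medians were below 0 in one orientation and above 0 in the other. Within a pool, the difference of Cy5 minus Cy3, divided by 2, was -0.078, -0.156 and -0.064 in MF1 and 0.197, 0.221 and 0.212 in C57. Each pool value is the mean of 1 array of each orientation, in which a dye effect that adds to the log2 ratio cancels. Other differences between the 2 arrays are averaged, not removed. With all 12 arrays fitted, the correlation between the 2 arrays of a pool, shared by all features, was 0.00624. Before sign-turning, partner arrays that agree correlate below 0. Their deviations from arrays of like strain and dye correlated at -0.347 to -0.152, and at 0.001 in C57 pool 3 (Spearman, across features).

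**Figure D2:**
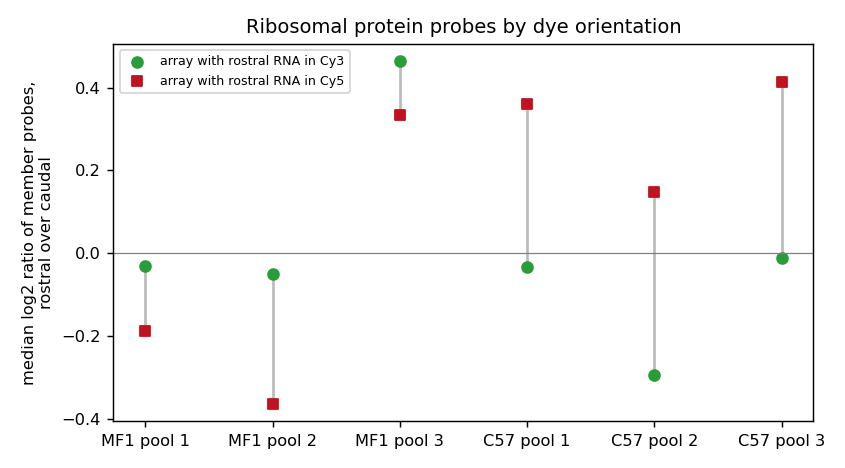
Median log2 ratio of rostral over caudal signal over the member probes (vertical axis) on each of the 12 arrays, with green circles for rostral RNA in Cy3 and red squares for rostral RNA in Cy5. In the MF1 pools the Cy5 array lies 0.129 to 0.313 below its partner, and in the C57 pools it lies 0.394 to 0.442 above.

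No member passed an adjusted p of 0.05 in limma in any of 4 comparisons: both strains, MF1, C57, or C57 minus MF1. The share of all 14418 features that passed was 0% in each. At an unadjusted limma p under 0.05, 1 of the 66 members passed in each comparison (1.52%). It was Rps4l over both strains and in MF1, Rpl3 in C57, and Rpl23 in the strain difference. The share of all features at that level was 8.98% over both strains, 4.36% in MF1, 9.71% in C57 and 6.1% for the strain difference. The members' share was thus below that of all features in all 4. By direction, features above 0 at that level were 4.34%, 2.37%, 4.23% and 2.49% in the same order of comparisons, and features below 0 were 4.64%, 1.98%, 5.48% and 3.61%. Rps4l and Rpl23 were on the lower side and Rpl3 on the higher. None of the 66, each measured in 6 pools, had one sign in every pool measured, against 6.37% of features. Only 10596 of the 14418 features had all 6 pools, and one sign is easier to reach over fewer pools.

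Over both strains the members' median log2 ratio was 0.076, with 56 members above 0 and 10 below. All features had a median of 0.009, with 7437 above 0 and 6981 below. Without MF1 pool 3 the members' median was -0.013, so its side of 0 rested on that pool. Without centring it was -0.112, while the median of all features moved to -0.179. The median was 0.048 in MF1 (all features 0.010), 0.093 in C57 (0.004) and 0.078 for C57 minus MF1 (-0.012). In MF1 it was -0.165 without pool 3. In C57 it was -0.112 from the arrays with rostral RNA in Cy3 alone and 0.299 from those with rostral RNA in Cy5 alone. The members' median difference between the strains turned likewise, from -0.196 to 0.391.

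**Figure D3:**
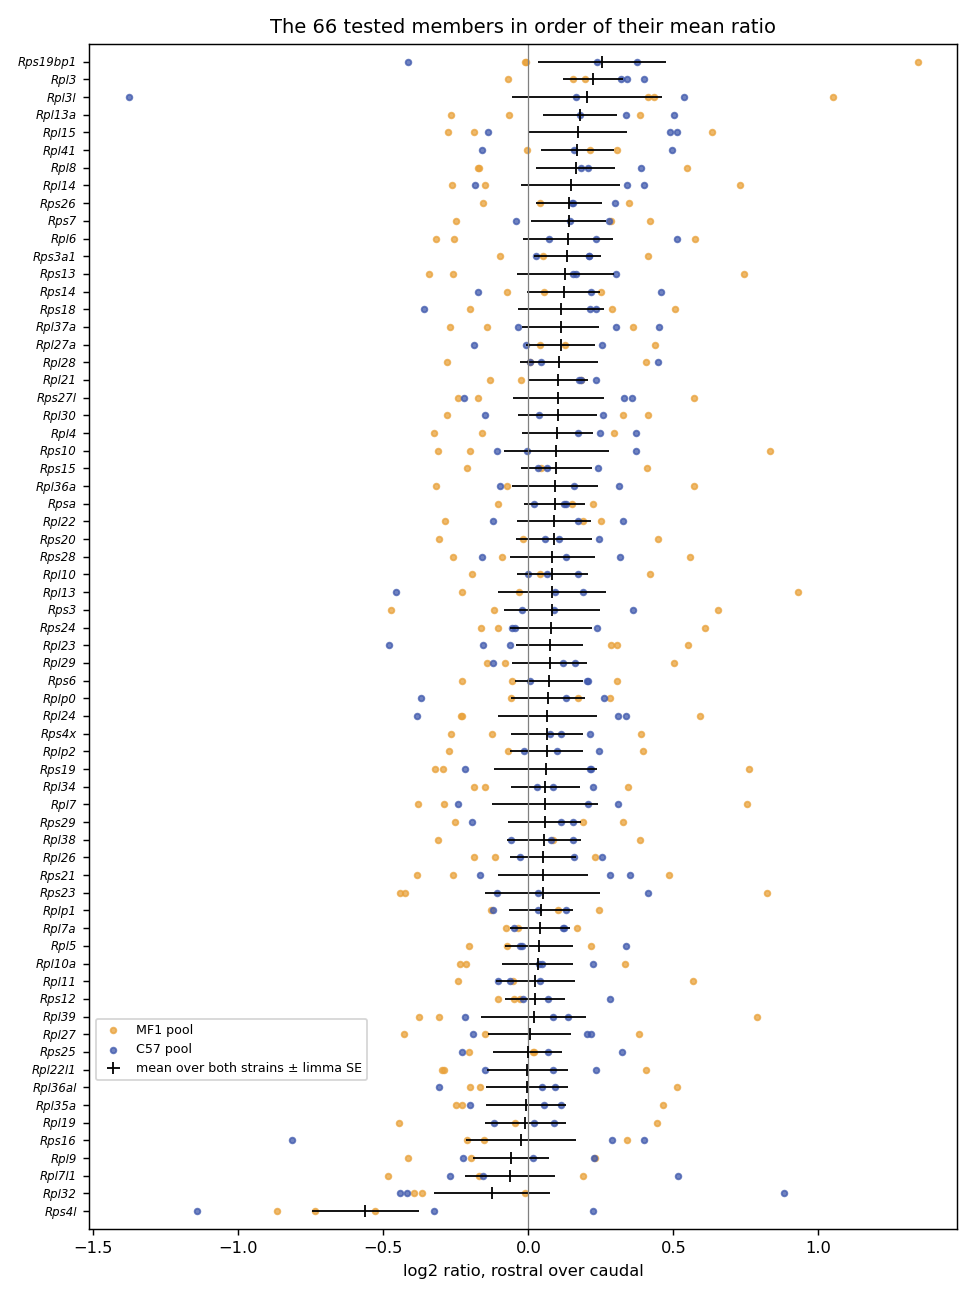
Log2 ratio of rostral over caudal signal (horizontal axis) for the 66 tested members in order of their mean ratio; points are the 6 pools (MF1 orange, C57 blue) and black marks the mean over both strains with its limma standard error. Rps4l lies lowest at -0.562, and the pools of each member lie on both sides of 0.

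In the small subunit, the 22 core genes had a median of 0.082 over both strains, with 20 above 0. Their pool medians were -0.111, -0.22 and 0.41 in MF1 and 0.205, -0.032 and 0.213 in C57, in the same order as for the whole list. Mean ratios ran from -0.025 for Rps16 to 0.139 for Rps7 and Rps26, all smaller than the spread of these pool medians. Rps26, a protein near the exit of the messenger RNA channel, had log2 ratios of 0.041, -0.157 and 0.346 in MF1 and 0.152, 0.154 and 0.298 in C57. Rps7 had 0.284, -0.25 and 0.421 in MF1 and 0.279, -0.042 and 0.144 in C57. Both genes were highest in MF1 pool 3 and lowest in MF1 pool 2.

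Rps16, whose protein lies in the head of the small subunit, had -0.213, -0.152 and 0.339 in MF1 and 0.289, -0.815 and 0.4 in C57. Only C57 pool 2 was far from the others, and there 1 of its 2 probes, which had values in both orientations in that pool alone, gave -1.76. The other probe averaged 0.131 over the pools, so the sign of the gene's mean of -0.025 ± 0.466 (SD, n = 6) rested on that 1 value. The probes of Rps12 also differed in sign, with means of 0.064 over 6 pools and -0.111 over the 4 pools in which the second had both orientations. The gene had -0.051, -0.106 and -0.029 in MF1 and -0.019, 0.069 and 0.282 in C57, a mean of 0.024 ± 0.138 (SD, n = 6). Its MF1 pool 3 value lay below 0, unlike most members there.

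Rpsa, a small subunit protein also known as the laminin receptor, was among the steadiest members. Its log2 ratios were 0.15, -0.105 and 0.223 in MF1 and 0.131, 0.021 and 0.122 in C57, with a mean of 0.090 ± 0.115 (SD, n = 6). Its 2 probes averaged 0.096 and 0.085. Only MF1 pool 2 was below 0, and the strains overlapped.

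In the large subunit, the 37 core genes tested had a median of 0.073, with 33 above 0. Their pool medians were -0.072, -0.228 and 0.386 in MF1 and 0.155, -0.096 and 0.216 in C57. The subunits therefore followed the same pools, and the large and small subunit medians differed by no more than 0.064 in any pool. Mean ratios ran from -0.125 for Rpl32 to 0.223 for Rpl3. The SD over pools ran from 0.107 for Rpl7a to 0.519 for Rpl32 among the core genes of both subunits.

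Rpl13a, which also acts outside the ribosome as a repressor of translation in inflammation, and whose window above ends in a pyrimidine run, had a mean of 0.178 ± 0.294 (SD, n = 6). The values were -0.066, -0.268 and 0.386 in MF1 and 0.336, 0.179 and 0.502 in C57. All C57 pools were above 0 and overlapped MF1 pool 3. The C57 mean was 0.339 (limma unadjusted p = 0.104). Without centring, its mean over both strains was -0.011.

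Rpl15, with the longest capital run among the windows shown, had -0.278, -0.186 and 0.634 in MF1 and 0.514, -0.138 and 0.488 in C57. Its mean was 0.172 ± 0.414 (SD, n = 6), and -0.016 without centring. Rpl4, which lines the exit tunnel of the nascent chain, had -0.158, -0.324 and 0.294 in MF1 and 0.372, 0.172 and 0.247 in C57. Both genes had MF1 pools 1 and 2 below 0, MF1 pool 3 well above it, and strains that overlapped. The strain difference of Rpl4 was 0.326, and its mean over both strains 0.100 ± 0.278 (SD, n = 6).

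Rpl9 was among the lowest core genes, with -0.196, -0.416 and 0.231 in MF1 and 0.015, -0.225 and 0.227 in C57. Its mean was -0.060 ± 0.263 (SD, n = 6). The gene still followed the pools, high in MF1 pool 3 and low in MF1 pool 2. Rpl32 did not: it had -0.367, -0.012 and -0.394 in MF1 and -0.443, 0.882 and -0.417 in C57. C57 pool 2 alone was above 0, and the mean was -0.125 ± 0.519 (SD, n = 6).

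Rpl10, whose protein joins the large subunit late in assembly, had 0.04, -0.194 and 0.418 in MF1 and 0.064, -0.002 and 0.172 in C57. Its mean was 0.083 ± 0.203 (SD, n = 6). Rpl35a had 2 probes with means of -0.035 and 0.018 and a gene mean of -0.008 ± 0.278 (SD, n = 6). For both genes the mean was smaller in size than the SD over the pools.

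The stalk of the large subunit recruits translation factors and is built on Rplp0, which carries dimers of Rplp1 and Rplp2. Rplp0 had 0.171, -0.059 and 0.282 in MF1 and 0.261, -0.369 and 0.131 in C57. Rplp1 had 0.103, -0.127 and 0.245 in MF1 and 0.034, -0.122 and 0.129 in C57. Rplp2 had -0.069, -0.272 and 0.394 in MF1 and 0.1, -0.016 and 0.242 in C57. All 3 were below 0 in MF1 pool 2 and C57 pool 2 and highest in MF1 pool 3. Their means were 0.069 ± 0.247, 0.044 ± 0.147 and 0.063 ± 0.236 (SD, n = 6 each). The 2 probes of Rplp0 averaged -0.004 and 0.143. On the C57 arrays the first ran from -3.179 to -0.85 with rostral RNA in Cy3 and from 0.78 to 3.024 in Cy5.

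The paralogs and associated genes were less alike. The 7 tested had a median of -0.003 over both strains, with 3 above 0, and the lowest, Rps4l, is one of them. Rps4l is an autosomal paralog of the X-linked Rps4x, which encodes the small subunit protein S4. Its log2 ratios were -0.865, -0.735 and -0.528 in MF1 and 0.222, -1.14 and -0.324 in C57. All MF1 pools and 2 of the C57 pools were below 0, and C57 pool 1 was above it. Each of the 6 MF1 arrays was below 0, at -0.999 to -0.504, in both dye orientations. With rostral RNA in Cy3 and in Cy5, C57 pool 1 gave 0.244 and 0.2, and C57 pool 2 gave -0.744 and -1.541. C57 pool 3 gave 0.018 and -0.665, so it was below 0 in 1 orientation alone.

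The mean of Rps4l over both strains was -0.562 ± 0.476 (SD, n = 6), a 1.48-fold lower rostral signal with a limma SE of 0.185. The limma p was 0.0197 unadjusted and 0.484 adjusted. In MF1 the mean was -0.709 ± 0.17 (SD, n = 3), with a limma p of 0.0311 unadjusted and 1 adjusted. In C57 it was -0.415 ± 0.687 (SD, n = 3), with an unadjusted limma p of 0.158. Both strains shared 1 estimate of the spread in the fit, so the limma SE was 0.261 in each, whatever the strain's own SD. Leaving out 1 pool at a time moved the mean between -0.38 and -0.721, and without MF1 pool 1 the unadjusted limma p was 0.0565. Rps4x, in contrast, had -0.125, -0.268 and 0.387 in MF1 and 0.112, 0.074 and 0.211 in C57, a mean of 0.065 ± 0.234 (SD, n = 6). It lay on the side of the members' median in 5 of 6 pools, and in C57 pool 2 it was above 0 where that median was below.

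Rpl3 encodes a large subunit protein that reaches towards the peptidyl transferase centre, and Rpl3l is its muscle paralog. Rpl3 had 0.194, -0.07 and 0.154 in MF1 and 0.4, 0.32 and 0.341 in C57. The C57 pools lay close together and above all MF1 pools. The C57 mean was 0.354 ± 0.042 (SD, n = 3), 1.28-fold, with a limma p of 0.0463 unadjusted and 0.503 adjusted. The limma SE, from the spread shared by both strains, was 0.145. The orientations differed: with rostral RNA in Cy3 the C57 arrays gave -0.057, -0.05 and -0.106, and with rostral RNA in Cy5 they gave 0.858, 0.69 and 0.789. The sign in C57 thus differed between orientations, at -0.071 for Cy3 alone and 0.779 for Cy5 alone. Over both strains the mean was 0.223 ± 0.171 (SD, n = 6), with a limma p of 0.0676 unadjusted and 0.58 adjusted. Rpl3l had 0.432, 1.05 and 0.414 in MF1 and 0.165, 0.536 and -1.38 in C57. It was above 0 in all pools but C57 pool 3, and had the widest spread of the 66 tested members, with a mean of 0.203 ± 0.827 (SD, n = 6). The orientations of Rpl3l disagreed in sign in some pools. With rostral RNA in Cy3 and in Cy5 it had 1.073 and -0.244 in MF1 pool 3. The same arrays gave 2.253 and -1.181 in C57 pool 2, and 0.186 and -2.94 in C57 pool 3. The strain difference of Rpl3l was -0.858, with a limma p of 0.142 unadjusted and 0.944 adjusted.

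**Figure D4:**
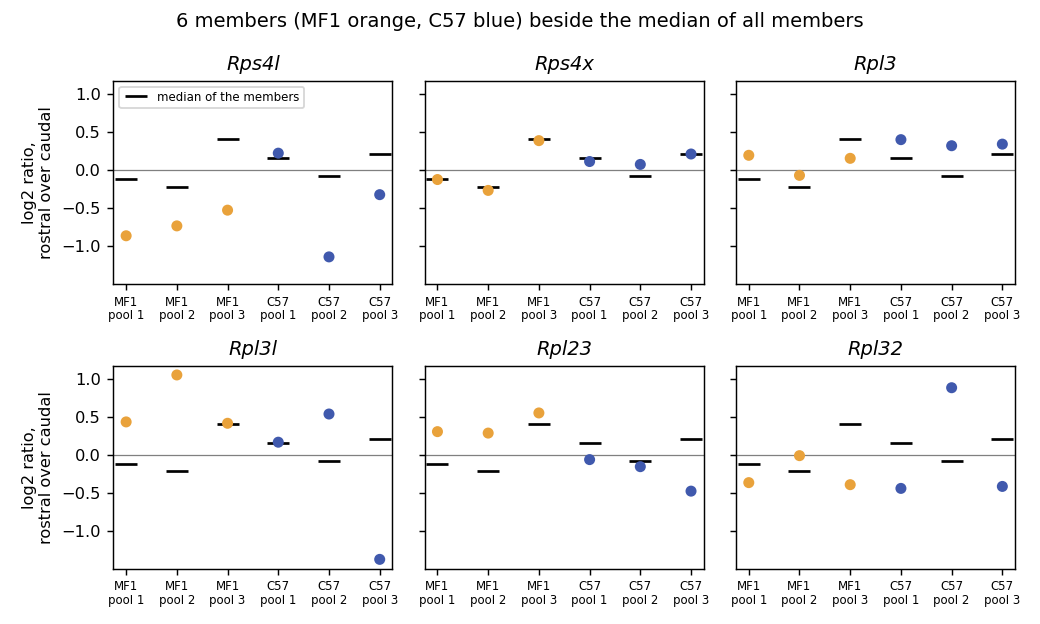
Log2 ratio of rostral over caudal signal (vertical axis) of 6 members in the 6 pools (MF1 orange, C57 blue), each with the members' median as a black dash. Rps4l lies below the median in 5 of 6 pools, Rpl3 lies between 0.32 and 0.4 in the C57 pools, and Rpl23 is above 0 in MF1 and below 0 in C57.

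Among the other paralog pairs, Rpl22 had 0.188, -0.288 and 0.25 in MF1 and -0.121, 0.171 and 0.327 in C57. Its paralog Rpl22l1 had -0.298, -0.289 and 0.404 in MF1 and 0.085, -0.151 and 0.232 in C57. The 2 genes stood on opposite sides of 0 in 3 of 6 pools, with means of 0.088 ± 0.239 and -0.003 ± 0.29 (SD, n = 6). Rpl7 had -0.29, -0.38 and 0.753 in MF1 and 0.204, -0.244 and 0.308 in C57. Its paralog Rpl7l1 had -0.484, -0.17 and 0.189 in MF1 and 0.515, -0.155 and -0.271 in C57. These 2 stood on opposite sides in C57 pool 3 alone, with means of 0.058 ± 0.441 and -0.063 ± 0.357 (SD, n = 6).

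Rpl36a had -0.072, -0.317 and 0.572 in MF1 and 0.311, -0.096 and 0.158 in C57. Its paralog Rpl36al had -0.165, -0.2 and 0.512 in MF1 and 0.046, 0.092 and -0.308 in C57. In MF1 the 2 genes kept the same sign in each pool, and in C57 they did so in pool 1. Their means were 0.093 ± 0.32 and -0.004 ± 0.295 (SD, n = 6). Rps27l, a p53-responsive paralog of Rps27, had -0.174, -0.242 and 0.572 in MF1 and 0.331, -0.222 and 0.356 in C57, a mean of 0.103 ± 0.357 (SD, n = 6). Rpl39, a short protein of the exit tunnel, had -0.308, -0.378 and 0.787 in MF1 and 0.086, -0.217 and 0.136 in C57, a mean of 0.018 ± 0.431 (SD, n = 6). Both carried the pool pattern with a larger amplitude than the members' median in MF1 pool 3.

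Rps19bp1, which encodes a regulator of the deacetylase Sirt1 that binds Rps19, had -0.011, -0.007 and 1.34 in MF1 and 0.237, -0.416 and 0.376 in C57. As a mean of both orientations, MF1 pool 3 stood far above the rest. The near-zero values of MF1 pools 1 and 2 are means of opposite arrays. With rostral RNA in Cy3 these pools gave -1.555 and -1.377, and with rostral RNA in Cy5 they gave 1.534 and 1.364. MF1 pool 3 gave 1.34 and 1.347, so on the Cy5 arrays it did not stand above MF1 pools 1 and 2. The mean was 0.254 ± 0.598 (SD, n = 6), and it was -0.376 from the arrays with rostral RNA in Cy3 alone.

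Strain was compared next. Above 0 in every C57 pool were 17 members (25.8%), against 18.1% of features, and below 0 in every C57 pool was 1, against 17.8%. In MF1, 3 members were above 0 in every pool (13.3% of features) and 3 below (11.1% of features). Those above were Rpl23, Rpl27a and Rpl3l, and those below were Rpl32, Rps12 and Rps4l. Neither probe of Rpl27a was above 0 in every MF1 pool. The first had -0.063, 0.196 and 0.529 in MF1 and the second 0.937, -0.113 and -0.273, so only their mean was. The first probe of Rps12 had 0.174, -0.146 and 0.032 in MF1, and only the second was below 0 in every MF1 pool. All C57 medians of the members were above 0 on Cy5 arrays and below 0 on Cy3 arrays, as given above, and the count of 17 is over the means of both. Shares of features, here and for Rpl23 below, count only the pools in which a feature was measured.

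Rpl23 was the only member with all MF1 pools on one side of 0 and all C57 pools on the other, against 3.24% of features. Its protein lies where the subunits meet and can bind Mdm2, the ubiquitin ligase of p53. The log2 ratios were 0.304, 0.285 and 0.55 in MF1 and -0.064, -0.157 and -0.479 in C57, so the strains did not overlap. The mean was 0.380 ± 0.148 in MF1 and -0.233 ± 0.218 in C57 (SD, n = 3 each). The difference of C57 minus MF1 was -0.613 with a limma SE of 0.227 and a limma p of 0.0318 unadjusted and 0.78 adjusted. Arrays of each orientation alone gave -0.596 and -0.63. The 2 probes of the gene differed: the first had 0.093, -0.331 and 0.424 in MF1 and -0.01, 0.067 and -0.306 in C57. The second had 0.515, 0.901 and 0.677 in MF1 and -0.118, -0.38 and -0.651 in C57. Only the second probe separated the strains. In MF1 pool 1 that probe gave -0.277 with rostral RNA in Cy3 and 1.308 in Cy5. In the other pools its orientations had the same sign.

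The 4 members outside the tests lacked values in pools. Rpl35 had values in the MF1 pools alone, at -0.241, -0.053 and 0.257. Rpl37 had 1 pool value, -2.38 in MF1 pool 2. Rpl39l, a testis-enriched paralog of Rpl39, had -0.116, -0.101 and 0.33 in MF1 and 0.19 in C57 pool 3. Rps23rg1 had -3.1 in MF1 pool 1 and 0.031, -0.488 and -1.05 in C57. Rpl35 and Rpl39l lay on the side of the members' median in each pool measured.

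Other genes of protein synthesis, taken from fixed lists, had pool medians that mostly shared the members' signs, while the order of the pools varied from list to list. For 71 mitochondrial ribosomal protein genes the pool medians were -0.115, -0.111 and 0.395 in MF1 and 0.277, -0.073 and 0.157 in C57. For 36 proteasome subunit genes, which degrade rather than make protein, they were -0.091, -0.246 and 0.297 in MF1 and 0.301, -0.007 and 0.188 in C57. Both lists, like the ribosomal protein genes, were below 0 in MF1 pools 1 and 2 and C57 pool 2 and above it in the other 3. The share of variation between pools was 23.2% (66 genes with all pools) and 37.4% (35 genes). It was 39.3% for all 66 ribosomal protein members and 49.8% for the core genes among them.

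For 43 cytosolic translation factors the pool medians were -0.032, -0.156 and 0.232 in MF1 and 0.094, -0.018 and 0.17 in C57. For 55 ribosome biogenesis factors they were -0.123, -0.187 and 0.246 in MF1 and 0.121, -0.08 and 0.029 in C57. The 20 other TOP and ribosome-associated genes had -0.227, -0.174 and 0.25 in MF1 and 0.158, -0.017 and 0.17 in C57. The signs in the 6 pools were those of the ribosomal protein genes in all 3 lists. The 22 signal recognition and docking genes, which guide ribosomes to the endoplasmic reticulum, had -0.159, -0.16 and 0.252 in MF1 and 0.14, 0.006 and 0.076 in C57. Their median differed in sign from the members' in C57 pool 2. The share of variation between pools was 11.8%, 9.66%, 19.4% and 26.3% in these 4 lists, over 42, 52, 20 and 22 genes.

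No gene of these 6 lists passed an adjusted limma p of 0.05 over both strains. At an unadjusted limma p under 0.05, 8.98% of features passed, 4.34% above 0 and 4.64% below. Above 0 were 3 of 71 mitochondrial ribosomal protein genes, 2 of 43 translation factors and 2 of 55 biogenesis factors. So were 1 of 20 other TOP genes and 1 of 36 proteasome genes. The TOP gene was Eif3f, also counted among the translation factors. A single gene, Taf1a, was below 0, and no signal recognition gene passed. Mrps24 had a mean log2 ratio of 0.415 ± 0.338 and Mrpl3 of 0.319 ± 0.222 (SD, n = 6), both of the mitochondrial ribosome. The initiation factor subunit gene Eif3f, in 2 of the lists, had 0.302 ± 0.166 (SD, n = 6), above 0 in 6 of 6 pools, with an adjusted limma p of 0.524. Eif4ebp2, a repressor of cap-dependent initiation, had 0.35 ± 0.273 (SD, n = 6). Eef2, the elongation factor that moves the ribosome along, had 0.282 ± 0.299 (SD, n = 6), with an unadjusted limma p of 0.0727. Taf1a, of the RNA polymerase I machinery that transcribes ribosomal RNA genes, had -0.662 ± 0.801 (SD, n = 5). Its fitted log2 ratio, which weighs the strains equally, was -0.805, with an adjusted limma p of 0.328. The biogenesis factor Ebna1bp2 had 0.342 ± 0.274 (SD, n = 6). The docking genes Srp72 and Rpn1 had fitted log2 ratios of -0.177 and 0.13. In the proteasome list, Psmd5 had 0.291 ± 0.232 and Psmb7 0.21 ± 0.168 (SD, n = 6).

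Marker lists of cell states and neighbouring tissues were set beside the members in each pool. For 36 cell cycle genes the pool medians were 0.076, 0.038 and 0.346 in MF1 and 0.186, 0.089 and 0.234 in C57. The median was thus above 0 in all 6 pools, and MF1 pool 3 and C57 pool 3 were highest, as for the ribosomal protein genes. For 23 genes of postmitotic neurons they were 0.029, -0.161 and 0.023 in MF1 and 0.108, -0.048 and 0.056 in C57. For 15 radial glia genes they were 0.025, 0.035 and -0.049 in MF1 and -0.026, -0.032 and 0.31 in C57. MF1 pool 3, where the ribosomal protein genes were highest, was the lowest of the 6 pools for radial glia genes.

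For 28 genes of meninges and mesenchyme the pool medians were 0.12, 0.009 and -0.093 in MF1 and -0.223, -0.05 and -0.032 in C57. For 11 red blood cell genes they were 0.245, -0.117 and 0.13 in MF1 and -0.092, -0.363 and -0.094 in C57. For 9 choroid plexus genes they were -0.068, -0.213 and -0.112 in MF1 and -0.137, -0.328 and -0.135 in C57. The meninges list was above 0 in MF1 pools 1 and 2, where the ribosomal protein genes were below it, and the reverse held in MF1 pool 3 and C57 pools 1 and 3. The part of any of these lists in the members' pool values was not tested.

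**Figure D5:**
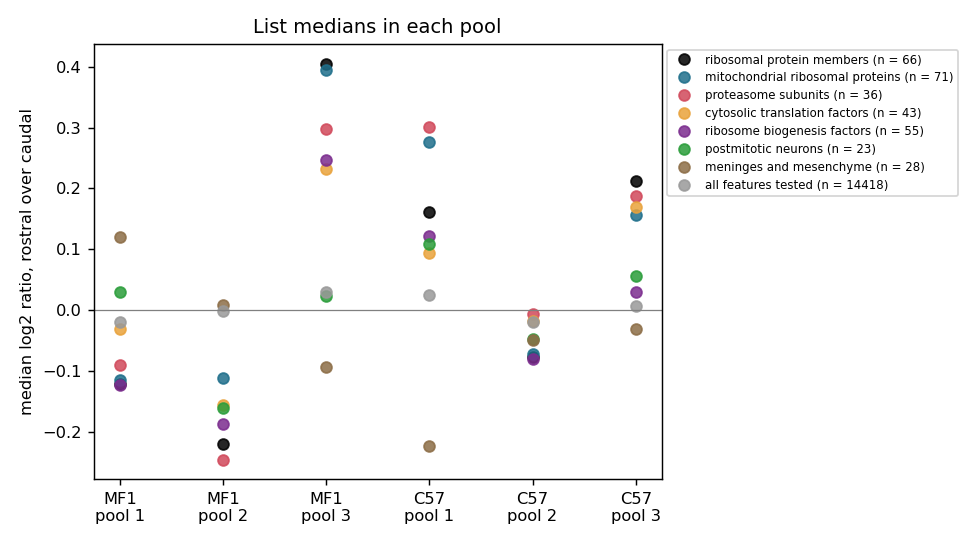
Median log2 ratio of rostral over caudal signal (vertical axis) of 8 sets of features in the 6 pools, with the number of features tested in the legend. The ribosomal protein, mitochondrial ribosomal and proteasome genes reach 0.297 to 0.405 in MF1 pool 3 and lie below 0 in MF1 pools 1 and 2, and the meninges and mesenchyme genes lie at 0.12 and 0.009 there.

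The pools of MF1 also differed from one another over all features. The Spearman correlation across all features was 0.281 between MF1 pools 1 and 2, and -0.216 and -0.215 between each of them and pool 3. Across the 59 core ribosomal protein genes it was 0.25, -0.439 and -0.497. These are correlations across genes, which are not independent replicates, and they describe how single genes were ordered within each pool. Core genes that stood high among the members in MF1 pools 1 and 2 tended to stand low among them in pool 3.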

How the data were processed

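The deposited value of each array is a log2 ratio of the 2 channels, per the value table the authors deposited. Its upper end of 16.61 (log2 of 100000) was read as a ceiling from the values. The sources used here do not state how the authors corrected background or normalized within arrays, or which channel is the numerator. The 701 values at 16.6 or above were set missing, arrays were centred on their medians (deposited medians -0.407 to 0.475), and arrays with rostral RNA in Cy3 were sign-turned. A pool value needs both orientations, and probes of a gene were averaged. A feature needs 2 pools per strain. The fit had 1 mean per strain and 1 spread shared by both strains (limma 3.58.1, R 4.3.3), with Benjamini-Hochberg adjustment over 14418 features. A limma p within a strain thus does not rest on the SD of that strain's pools alone. Of the 21998 probes, 16864 carry 1 gene symbol, 139 several and 4995 none. Symbols come from the platform annotation; 16184 probes' Entrez identifiers were found in RefSeq, and no symbol was replaced. Of 936 member values on the arrays, 25 were missing. The number of arrays limits the precision.

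The ribosomal protein genes and gene lists were chosen with earlier results of these data known. Members named with values were those at unadjusted p under 0.05, the 5 highest and 5 lowest means, the 3 per side of smallest p in MF1, C57 and the strain difference, paralog pairs, stalk proteins and Rpsa, and genes whose probes differ in sign. From each protein-synthesis or proteasome list, the 2 genes of smallest p were named. Rps7, Rps26, Rpl7a, Rpl27a and the untested members were named after their values were seen. Pool numbers shared by the strains were checked for pairing: deviations of same-numbered pools from their strain means correlated at -0.219, 0.122 and 0.018 (Spearman, across features), so they name pools only. The procedure was tested on simulated data over both strains with 14418 features. It recovered 0% of 67 features changed by 0.5 (log2), 43.3% of 67 changed by 1 and 72.7% of 66 changed by 2, with 3 false calls. Alternatives covered centring, scaling, the ceiling, missing values, single probes, a fit of all 12 arrays with pools as random blocks, single orientations, robust variance, left-out pools, a replicate block and members without paralogs.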

Additional observations from a re-analysis of the deposited data

Results flagged for a closer look

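Rpl23 was the only tested member whose pools lay above 0 in one strain and below 0 in the other. That is 1.52% of the 66 members, against 3.24% of features split in this way in either direction over the pools measured. The difference of C57 minus MF1 was -0.613 in log2 ratio with a limma p of 0.0318 unadjusted and 0.78 adjusted. All 3 MF1 pools were above 0 and all 3 C57 pools below. Its 2 probes averaged -0.011 and 0.157 over the pools, and the separation lay in the second. Groups of 3 pools were not examined for single pools that stand apart.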

How the results depend on the processing

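The members past the adjusted limma threshold numbered 0 in all 4 comparisons under each of the 20 alternatives. At an unadjusted p under 0.05 the count of members, 1 in each comparison, moved as follows. Over both strains it was 2 with at least 1 pool per strain, 6 with rostral RNA in Cy5 alone (of 2592 features), 0 without paralogs, and 0 to 2 with 1 pool left out. In MF1 it was 3 with scaled arrays, 4 with Cy5 alone and 0 without paralogs. It was 2 with centring on complete probes, ceiling values kept, complete features, at least 1 pool per strain, single probes or the 12-array fit, and 0 to 2 with 1 pool left out. In C57 it was 0 without centring, with scaled arrays or with the replicate block, 2 in the 12-array fit or with Cy3 alone, 9 with Cy5 alone (of 3468 features), and 0 to 1 with 1 pool left out. For the strain difference it was 0 without centring or with the replicate block, 2 with at least 1 pool per strain or Cy3 alone, 7 with Cy5 alone (of 2090 features), and 0 to 1 with 1 pool left out. Members with one sign in every pool, 0 in all, numbered 2 with Cy3 alone and 0 to 6 with 1 pool left out, 6 without MF1 pool 2. Centring on the ribosomal protein probes, added after seeing the data, gave 1 such member and 0 in C57.

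The replicate block left the median over both strains at 0.076 and its count at 1; pool numbers do not pair the pools. Directions of single genes were followed where the ratio reached its limma SE. Without centring, Rpl13a (-0.011) and Rpl15 (-0.016) turned sign. With Cy3 alone, Rpl3 in C57 (-0.071), the strain difference of Rpl3 (-0.275) and Rps19bp1 (-0.376) turned. The members' median strain difference was -0.196 with Cy3 alone and 0.391 with Cy5 alone, and single omissions moved it between -0.068 (without MF1 pool 2) and 0.272 (without MF1 pool 3). The causes were not tested. Ratios without spot intensities leave signal over background unknown.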
